A study of Rattus norvegicus with 14 samples.

Results

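Long methylated regions of the rat hippocampus are described here: the stretches of at least 2000 bp on chromosomes 1 to 20 (end minus start in the deposited RN4 coordinates) among the regions that Methyl-Seq recovered. There were 2361 such regions among 310070 in all (0.761%), and 0.801% of the 294637 regions on these chromosomes. They covered 6741562 bp, which is 3.55% of the bases in regions on these chromosomes. The comparison class, regions of 400 to 800 bp on the same chromosomes, held 152749 regions. A further 158 regions of this length on chromosome X and 378 on unplaced sequence were not members.

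DNA methylation in mammals is the addition of a methyl group to cytosine, mostly where a guanine follows it (CpG). It is dense over repeated DNA and many gene bodies, sparse over most CpG-rich promoters, and copied through cell division, while neurons that no longer divide can still gain and lose it. In Methyl-Seq, sheared DNA is captured with a protein that binds methylated CpG and is then sequenced, so the number of reads (tags) in a stretch rises with both its methylation and its number of CpG sites. A long region is a stretch over which regions called between pairs of samples were merged, and not a direct readout of the percentage of methylated cytosines.

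The animals were male Wistar rats of 300 to 350 g, an outbred stock, and every animal received methyl scopolamine (1 mg/kg). CTRL animals (n = 5) were then injected with saline and fed a standard diet. PILO animals (n = 4) received pilocarpine (340 mg/kg), a muscarinic agonist that induces status epilepticus and later spontaneous seizures, on the same standard diet. PILO+KD animals (n = 5) received pilocarpine and a ketogenic diet, which is rich in fat and poor in carbohydrate. Status epilepticus was ended with diazepam, followed by glucose under the skin, and animals that did not respond at first were given more pilocarpine. Some animals had EEG electrodes and a transmitter implanted before induction. The paper lists EEGs for part of the PILO and PILO+KD animals only, and which animals these were is not given here. The animals were observed for 84 days, so the tissue is from the chronic stage. DNA came from the dorsal hippocampus of each animal, 1 library per animal, with 500 ng of input. Tissue was not separated by cell type, so a change in methylation per cell and a change in the makeup of cells cannot be told apart, and the deposited regions carry no gene names by which the tissue could be checked. A ketogenic diet without pilocarpine was not among the groups analysed here, so the diet alone was not compared.

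Between 6972700 and 12391666 tags were counted per animal, so that 1 tag stood for 0.0807 to 0.143 counts per 1000000 tags (CPM). The libraries ran on 4 flow cells, and the largest held 3 CTRL, 3 PILO and 2 PILO+KD animals. PILO 3, the most deeply sequenced library, stood apart from the other PILO animals in the share of tags in long regions, as given below. Long regions were well covered: their tags summed over the 14 animals had a median of 3840 (208 to 100895), against 124 for regions of 400 to 800 bp. All 2361 passed the filter on low counts (at least 129 summed tags), as did 74148 of the shorter class. Each long region had a tag in every animal, and 2348 of them had at least 10.

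Length among the members was strongly skewed. The median was 2426 bp, the quartiles were 2157 and 3049 bp, and 1274 regions (54.0%) were shorter than 2500 bp. Only 18 regions reached 10000 bp. The longest region, chr17:49666823-49690377, had 23554 bp. It was followed by chr6:137759617-137778823 with 19206 bp, by chr1:33562174-33580017 with 17843 bp and chr1:33584496-33599278 with 14782 bp, which lie close together, and by chr17:49299031-49313320 with 14289 bp. At the limit itself, the regions of exactly 2000 bp named by position, chr4:28176827-28178827 and chr18:64634009-64636009, had mean densities of 11.9 and 4.28 CPM per kb. Just below it, chr1:79819138-79821137 and chr10:99973563-99975562 with 1999 bp had 6.35 and 5.74.

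Tag density is given as CPM per kb of region, which takes the length of a region out. Long regions were far denser than the shorter class. Over the 14 animals, the median of the mean density was 11.5 in long regions and 1.64 in regions of 400 to 800 bp. Of the long regions, 2341 (99.2%) lay above the median of the shorter class and 1964 (83.2%) above its 90th percentile. Length alone chose the members, although the authors' calling of regions itself needs tags.

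Density rose with length up to about 3000 bp and then levelled. The median was 1.03 below 400 bp, 5.15 from 801 to 1199 bp, and 8.34 from 1600 to 1999 bp. Among the members it was 10.1 in the 1735 regions of 2000 to 2999 bp and 14.7 in the 511 regions of 3000 to 4999 bp. It was 14.7 again in the 97 regions of 5000 to 9999 bp and 12.9 in the 18 longer ones. The members themselves ranged from 0.751 to 118, so that a long region was not always a dense one.

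**Figure D1:**
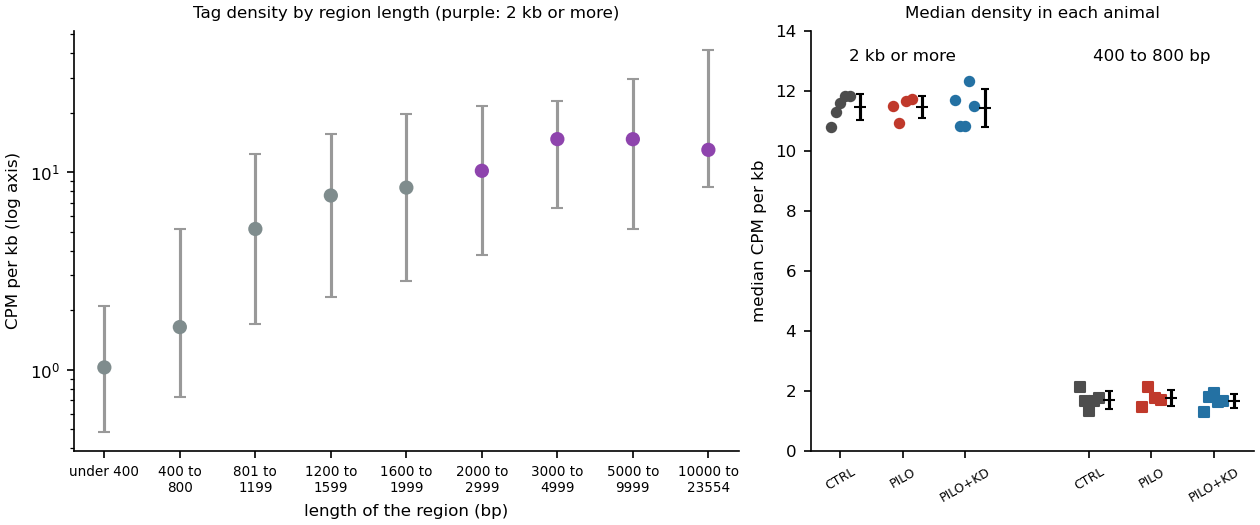
Left, tag density (CPM per kb, log axis) of the regions of each length class, with the median as a point and the 10th to 90th percentile as a bar; right, the median density of long and of 400 to 800 bp regions in each animal, with the group mean and SD beside the points. The medians climb from 1.03 in the shortest class to 14.7, and each animal's long regions lie between 10.8 and 12.3 while its shorter regions lie between 1.30 and 2.13.

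The 5 densest members were all longer than the upper quartile of the class. The highest mean CTRL density was 127 ± 14.3 (SD, n = 5) in chr2:186308388-186311605, a region of 3217 bp with no other long region within 100 kb. It was 109 ± 25.7 in chr4:182542639-182547989, a region of 5350 bp. Next came chr6:10698945-10703886 with 76.2 ± 8.28 and its neighbour chr6:10677303-10680833 with 75.7 ± 8.39, then chr12:4408552-4420332, the longest of the 5 with 11780 bp, with 66.2 ± 10.4. Because duplicate reads had been removed, at most 2 tags per bp (1 start per strand) can remain in an animal. There were 29 long regions over 0.5 tags per bp in an animal and 3 over 1, with a highest value of 1.33 in the chromosome 4 region.

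The excess of density was present in every animal. The ratio of the median density of long regions to that of the 400 to 800 bp regions was 5.07, 6.88, 8.82, 7.16 and 6.78 in CTRL 1 to 5, 7.90, 5.17, 6.59 and 6.92 in PILO 2 to 5, and 8.99, 6.07, 5.64, 7.63 and 6.92 in PILO+KD 1 to 4 and 211. The group means were 6.94 ± 1.33 (SD, n = 5), 6.65 ± 1.13 (n = 4) and 7.05 ± 1.33 (n = 5). The groups overlapped over nearly their whole range, and their means differed by less than 1 SD.

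Of all tags on chromosomes 1 to 20, long regions took 10.3% ± 0.403 in CTRL, 10.5% ± 0.695 in PILO and 10.6% ± 0.827 in PILO+KD. They took at least 9.49% (PILO 3) and at most 11.3% (PILO+KD 4), on 3.55% of the bases. Libraries in which long regions took little were those in which the 400 to 800 bp regions took much: PILO 3 and CTRL 1 had the largest shares in the shorter class (29.4% and 29.3%) and were among the 4 lowest in long regions.

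Long regions were unevenly spread over the chromosomes. Chromosome 12 had the highest share, 127 of its 10470 regions (1.21%), and chromosome 19 the lowest, 48 of 9368 (0.512%). Chromosomes 20, 16, 13 and 14 followed chromosome 12 with 1.08%, 1.04%, 0.991% and 0.978%. By number, chromosome 1 held most (257). The share of 400 to 800 bp regions ranged far less in proportion, from 50.0% to 53.8%.

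Chromosome 12 was also where long regions were least dense. Their median there was 7.93 CPM per kb against 14.3 on chromosome 13, the highest. Relative to the shorter regions of the same chromosome, density was 4.55-fold higher on chromosome 12 and 8.57-fold higher on chromosome 13. Chromosome 19, with the lowest share, had the next lowest density (9.33), and chromosome 13, with the highest density, was among the 4 chromosomes with the highest share.

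The first 1000 kb of the deposited coordinates held 80 of the 2361 long regions (3.39%), on 16 chromosomes, against 0.453% of the 400 to 800 bp regions. The 80 were not evenly shared. They include clusters of long regions less than 100 kb apart, with 11 and 7 on chromosome 2, 10 on chromosome 12, 9 on chromosome 18 and 7 on chromosome 3. The last 1000 kb before the end of the last region held 17 (0.720%), against 0.446%. On chromosome 12 a long region began at the first base listed. These are counts of positions in RN4, and gaps of that assembly were not examined here.

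Neighbours of long regions were few but close. The gap to the nearest region had a median of 1012 bp, against 1463 bp for 400 to 800 bp regions, and 1177 members (49.9%) had a neighbour within 1 kb, against 39.5%. For the members of 3000 to 4999 bp the median gap was 299 bp, and 71.6% had a neighbour within 1 kb. Within 100 kb, however, there were fewer regions around a long region (median 26) than around a shorter one (median 35).

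Long regions kept company with each other. Another long region lay within 10 kb of 717 members (30.4%), against 2.06% of the 400 to 800 bp regions, and within 100 kb of 1184 members (50.1%), against 16.7%. When members less than 100 kb apart were joined, they formed 1629 groups, of which 452 held at least 2 and 28 held at least 5. These 28 contained 206 members (8.73%).

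**Figure D2:**
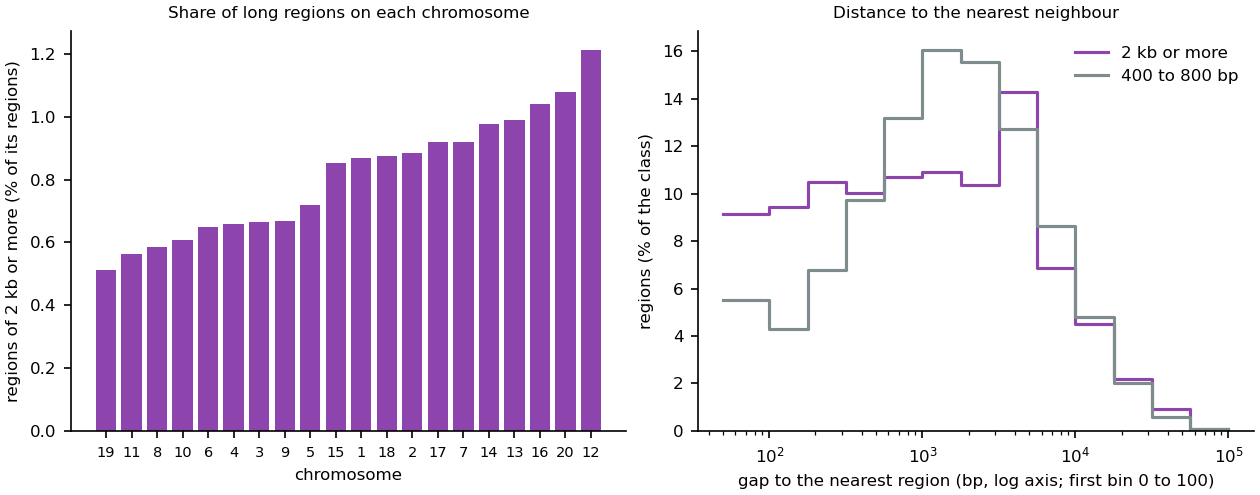
Left, long regions as a percentage of all regions on each chromosome, in ascending order; right, the distribution of the gap from a region to its nearest neighbour (bp, log axis) for long and for 400 to 800 bp regions, as a percentage of each class. The bars run from 0.512% on chromosome 19 to 1.21% on chromosome 12. The long regions exceed the shorter class at gaps below 562 bp, and again from 3162 to 5623 bp and from 17783 to 56234 bp.

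The largest group was on chromosome 17, where 33 long regions filled 36.5% of the 524.5 kb from 49213645 to 49738145 and included 2 of the 5 longest. Its members had a median density of 11.3, close to that of the class as a whole. Groups of 11 on chromosome 2 (332363 to 699885) and of 10 on chromosome 12 (1 to 206933) lay in the first 1000 kb of their chromosomes. A group of 9 on chromosome 13 (19118551 to 19231415) had a median density of 39.2, and long regions made up 46.5% of its span.

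Without regard to depth, single animals agreed better on long regions than on shorter ones. The coefficient of variation over the 5 CTRL animals had a median of 0.122 in regions of 2000 to 2999 bp and 0.115 in those of 3000 to 4999 bp, against 0.412 in regions of 400 to 800 bp, which have fewer tags. It was higher again, 0.168 and 0.170, in the 2 longest classes. The biological coefficient of variation fitted by edgeR had a median of 16.3% in long regions and 23.6% in regions of 400 to 800 bp. At similar depth the classes were closer, judged by the highest over the lowest CPM among all animals. At 500 to 2000 tags its median was 1.90 in long regions, 1.98 below 2000 bp and 2.07 at 400 to 800 bp. At 2000 to 4000 tags it was 1.69, 1.71 and 1.65. At 4000 to 8000 tags it was 1.64 in long regions and 1.78 below 2000 bp.

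The next question was whether pilocarpine and diet changed methylation in long regions. Each contrast was fitted over all 155092 regions tested with edgeR's quasi-likelihood test, and a region was called at an unadjusted p below 0.01, the cut-off of the study. Every region called so is a candidate, since adjusted p values over all regions tested (Benjamini-Hochberg) were above 0.05 for all but 1 of the calls below. The level of a region is given in TMM-scaled CPM, and its log2 fold change is that of the fit. In lists of single animals the order is CTRL 1 to 5, PILO 2 to 5, and PILO+KD 1 to 4 and 211.

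In PILO versus CTRL, 15 of 2361 long regions were called (0.635%). The share over all regions tested was 1.19%, and over regions of 400 to 800 bp it was 1.34%, so calls were fewer among long regions than in the background. Of the 15, 11 were higher in PILO (0.713% of all regions tested were called higher) and 4 lower (0.482%). The split depended on the analysis: it was 11 higher and 9 lower with total tags in place of TMM scaling, 9 and 13 with DESeq2's Wald test, and 13 and 13 without PILO 3. With the replicate number as a block it was 21 and 10, which is 31 calls in all. They lay at 15 separate places on 12 chromosomes. The 4 PILO animals and the 5 CTRL animals did not overlap in 30 long regions (1.27%), against 2.01% of all regions tested and 2.37% of those of 400 to 800 bp. Unlike the calls, more of these 30 were lower in PILO (18) than higher (12). Over all regions tested, 1526 were lower and 1599 higher without overlap. The adjusted p was below 0.05 in 1 long region, against 0.00387% of all regions tested.

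The shift of the class as a whole was small. The median log2 fold change of the long regions was 0.04, against 0.00 over all regions tested and -0.01 in regions of 400 to 800 bp. Its size without sign had a median of 0.11 in long regions and 0.22 in the shorter class, with median standard errors of 0.16 and 0.33. At similar depth the order varied. Long regions with 500 to 2000 summed tags were called in 10 of 512 cases (1.95%), and regions shorter than 2000 bp of that depth in 0.859%. At 2000 to 4000 tags the shares were 0.435% (3 of 689) and 0.318%. At 4000 to 8000 tags they were 0.12% (1 of 835) and 0.216% (2 of 927), which rests on very few calls. From 8000 tags on, 1 of 305 long and 0 of 141 shorter regions were called. None of the 20 long regions below 500 tags was called, against 1.58% of the shorter ones.

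The smallest p belonged to chr7:32692581-32694777, a region of 2196 bp without another long region within 100 kb. Its CPM was 4.77, 6.15, 3.99, 4.55 and 4.36 in CTRL, 12.9, 11.8, 13.6 and 12.1 in PILO, and 13.1, 6.42, 11.4, 3.87 and 8.69 in PILO+KD. Every PILO animal lay above every CTRL animal, while PILO+KD animals were spread from the CTRL to the PILO level. The log2 fold change was 1.39 ± 0.23 (SE), a 2.62-fold higher level in PILO, with an edgeR p of 1.13e-06, an adjusted p of 0.035 and an exact permutation p of 0.00794 (two-sided, over the animals), the smallest that 126 splits allow. The adjusted p lay between 0.00145 and 0.0569 over 10 other settings of the analysis, and between 0.00403 and 0.141 when 1 animal was left out, below 0.05 in 8 and 6 of them. PILO+KD versus CTRL, which shares the CTRL animals, gave 0.85 ± 0.22 for this region (edgeR p = 0.000675, adjusted p = 0.805, exact permutation p = 0.0714). Both its neighbours, at 5855 and 2894 bp, had too few tags to be tested.

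A region of 4513 bp on chromosome 4, chr4:5281846-5286359, had the largest increase in PILO. Its CPM was 8.64, 8.61, 6.05, 7.21 and 6.54 in CTRL, 25.9, 34.4, 46.7 and 8.70 in PILO, and 3.74, 7.48, 8.58, 24.1 and 16.3 in PILO+KD. The PILO animals exceeded the CTRL animals without overlap, but PILO 5 lay close to the highest CTRL animals. The level was 3.88-fold higher, a log2 fold change of 1.96 ± 0.35 (edgeR p = 3.32e-06, adjusted p = 0.0643, exact permutation p = 0.00794). In PILO+KD versus PILO it was -1.25 ± 0.33 (edgeR p = 0.000743, adjusted p = 1.00, exact permutation p = 0.103), where the groups overlapped. Without PILO 4, this second difference was -0.94 and no longer called.

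The other named increases were smaller and more even. In chr1:208383348-208385388 (2040 bp), CPM was 9.14, 8.50, 8.50, 6.33 and 8.50 in CTRL, 14.2, 13.2, 17.6 and 16.4 in PILO, and 14.1, 11.0, 12.8, 10.3 and 10.6 in PILO+KD. Neither pilocarpine group overlapped CTRL there, and the log2 fold change was 0.89 ± 0.16 for PILO (edgeR p = 5.03e-06, adjusted p = 0.0867) and 0.51 ± 0.16 for PILO+KD (edgeR p = 0.0026, adjusted p = 0.949), with an exact permutation p of 0.00794 in both. In chr10:91542570-91544680 (2110 bp), CPM was 6.46, 10.6, 7.34, 7.21 and 4.80 in CTRL and 20.1, 12.2, 12.6 and 12.5 in PILO. The groups did not overlap, although PILO 2 stood well above the other PILO animals. Its difference was 0.97 ± 0.23 on the log2 scale (edgeR p = 0.000165, adjusted p = 0.432, exact permutation p = 0.0159), and PILO+KD animals ranged from 6.52 to 17.0.

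These 4 increases had p below 0.01 in all 14 fits that each left out 1 animal, and on the largest flow cell alone, where their log2 fold changes were 1.37, 2.29, 0.94 and 0.82. Here and below, the 14 fits include those without an animal of the group not compared. Such an animal enters a contrast only through the scaling and the shared spread. The neighbours of the chromosome 1 region, at 3329 and 4505 bp, did not share its direction (log2 fold changes of -0.30 and -0.12, neither called).

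The 4 decreases were weaker. In chr20:5093332-5096354 (3022 bp), CPM was 40.7, 43.5, 47.0, 33.8 and 37.5 in CTRL and 24.6, 32.1, 30.7 and 29.8 in PILO. The groups did not overlap and the log2 fold change was -0.47 ± 0.16 (edgeR p = 0.00523, adjusted p = 0.795, exact permutation p = 0.0159). The edgeR p stayed below 0.01 in 9 of the 14 fits without 1 animal. The call was lost without CTRL 2, CTRL 3, PILO 2, PILO 4 or PILO 5, all animals of the groups compared. In chr3:59576284-59578598 (2314 bp), CTRL animals lay between 20.5 and 22.9 CPM and PILO animals between 12.1 and 18.8, without overlap (exact permutation p = 0.00794), and the region stayed called in 6 of 14 such fits. That call was lost without any single CTRL animal, and without PILO 2, PILO 5 or PILO+KD 211. In chr3:165030410-165032807 (2397 bp), CTRL animals lay between 9.62 and 14 and PILO animals between 3.55 and 10.1, with overlap (exact permutation p = 0.0317), and it stayed called in 6 of 14. On the largest flow cell none of these 3 was called (-0.49, -0.39 and -0.55), and with the replicate block the first and second were not (-0.43 in both).

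The fourth decrease, chr15:58344262-58348046 (3784 bp), rested on single animals. Its CPM was 68.0, 490.1, 502, 71.7 and 68.1 in CTRL, 97.4, 68.6, 61.0 and 85.3 in PILO, and 147, 449, 64.0, 70.4 and 96.3 in PILO+KD. CTRL 2, CTRL 3 and PILO+KD 2 were at about the same high level and the other 11 animals between 61.0 and 147. PILO versus CTRL gave a log2 fold change of -1.62 ± 0.52 (edgeR p = 0.00417, adjusted p = 0.774), and the exact permutation p was 0.389. Without CTRL 2 it was -1.18 and without CTRL 3 -1.16, in both cases no longer called. The call was also lost without PILO 3 (-1.56), without PILO 4 (-1.52) and with the replicate block (-1.19).

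**Figure D3:**
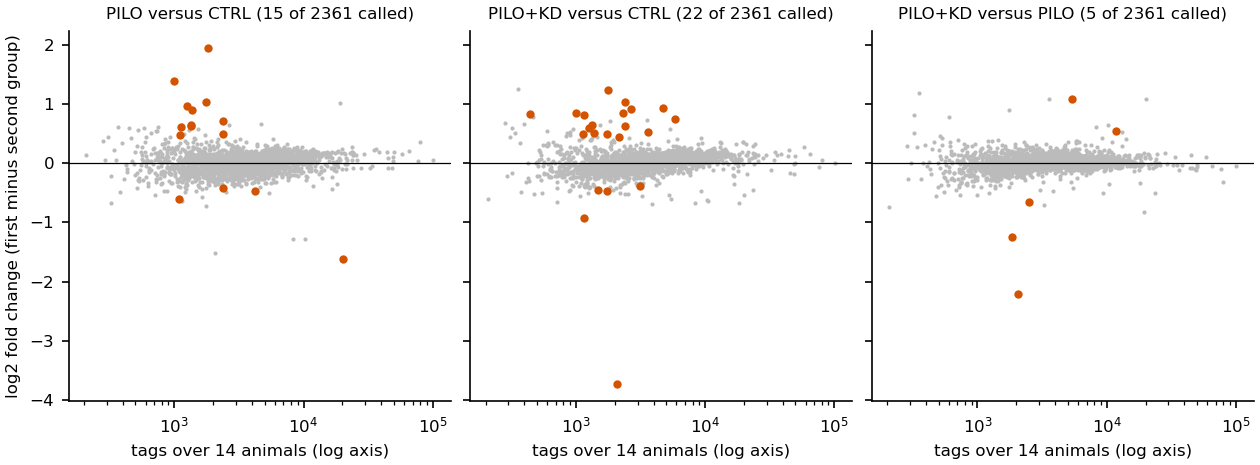
Log2 fold change of each of the 2361 long regions in the 3 contrasts against its tags summed over 14 animals (log axis), with regions called at p below 0.01 in orange and the others in grey. Calls number 15, 22 and 5, and most of those in the first contrast are positive and have few tags for the class.

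In PILO+KD versus CTRL, 22 long regions were called (0.932%), against 0.92% of all regions tested and 0.949% of regions of 400 to 800 bp. At similar depth the share was higher in long regions than in those shorter than 2000 bp: 2.15% against 0.59% at 500 to 2000 tags, 1.16% against 0.151% at 2000 to 4000 and 0.24% against 0.108% at 4000 to 8000, without a test. The last of these rests on 2 calls and 1. From 8000 tags on, 0 of 305 long and 0 of 141 shorter regions were called. The calls at 500 to 8000 tags include 5 adjacent regions on chromosome 16, described below, with 1149 to 4685 tags each. Of the 22, 17 were higher in PILO+KD (0.5% of all regions tested were called higher) and 5 lower (0.42%). The split was 18 and 11 with total tags, and 19 and 12 with loess offsets on abundance, a scaling added after seeing the data. No long region had an adjusted p below 0.05 in edgeR (smallest 0.0581) or in DESeq2, against 0.00129% of all regions tested in edgeR, while 68 long regions had an unadjusted p below 0.05 in edgeR and 59 in DESeq2. The region with that smallest edgeR value, on chromosome 5 and described below, was given no adjusted p by DESeq2. The groups did not overlap in 10 long regions (0.424%), against 0.727% of all regions tested and 0.851% of those of 400 to 800 bp. Unlike the calls, most of these 10 were lower in PILO+KD (8) and 2 were higher. Over all regions tested, 673 were lower and 454 higher without overlap. The median log2 fold change of the long regions was 0.06, against -0.02 in the 400 to 800 bp regions and 0.01 over all regions tested. It was -0.019 with loess offsets and -0.13 on the largest flow cell, so its sign was not stable.

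The 22 calls lay at 18 places more than 100 kb apart, because 5 of them were neighbours on chromosome 16. Between 37866382 and 37903760 on chromosome 16, a stretch of 37.4 kb held 5 consecutive long regions and no other region. All 5 were called higher in PILO+KD than in CTRL. From left to right, their lengths were 6001, 5698, 3311, 13008 and 7076 bp, and their log2 fold changes were 0.54 ± 0.18, 0.85 ± 0.23, 0.82 ± 0.28, 0.94 ± 0.25 and 0.92 ± 0.27. The smallest adjusted p among them (edgeR) was 0.805.

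In the longest of these, chr16:37883674-37896682, CPM was 26.4, 26.0, 35.2, 23.5 and 23.7 in CTRL, 64.1, 25.1, 58.4 and 24.5 in PILO, and 81.0, 29.5, 35.1, 70.1 and 43.7 in PILO+KD. PILO+KD 1, PILO+KD 4, PILO 2 and PILO 4 were high, PILO+KD 211 was in between, and the other animals of both pilocarpine groups were at the CTRL level. On the log2 scale the difference was 0.94 in PILO+KD (edgeR p = 0.000653, exact permutation p = 0.0238) and 0.67 ± 0.26 in PILO (not called, exact permutation p = 0.238), 2 contrasts that share the CTRL animals. On the largest flow cell, with PILO+KD 2 and 3 as its only PILO+KD animals, the difference from CTRL was 0.21 and not called. Density along this stretch was low for the class: the mean CTRL density of the longest member was 1.94 ± 0.313.

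Near the start of chromosome 2, 2 long regions were called higher in PILO+KD, both within groups of long regions. In chr2:132061-134353 (2292 bp), CPM was 19.6, 5.48, 13.3, 14.7 and 11.0 in CTRL, 17.2, 19.6, 19.1 and 28.4 in PILO, and 41.0, 22.4, 28.7, 22.9 and 16.4 in PILO+KD. PILO+KD animals lay above all but CTRL 1, which was among the range of both pilocarpine groups. Its log2 fold change was 1.03 ± 0.23 in PILO+KD (edgeR p = 0.00011, adjusted p = 0.614, exact permutation p = 0.0159) and 0.72 ± 0.25 in PILO (adjusted p = 0.809, exact permutation p = 0.0476).

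In chr2:614180-616387 (2207 bp), CPM was 16.6, 4.25, 6.57, 8.10 and 5.45 in CTRL, 16.3, 13.6, 14.8 and 23.4 in PILO, and 33.4, 26.4, 14, 14.6 and 9.97 in PILO+KD. CTRL 1 was again the animal that overlapped. PILO+KD differed from CTRL by 1.24 ± 0.29 on the log2 scale (edgeR p = 0.000149, adjusted p = 0.614, exact permutation p = 0.0317) and PILO by 1.04 ± 0.30 (adjusted p = 0.672, exact permutation p = 0.0397). Their closest long neighbours, at 63 and 267 bp, gave 0.04 and 0.25 in PILO+KD versus CTRL, and neither was called.

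In chr17:72271668-72273806 (2138 bp), by contrast, the neighbour at 1070 bp was called as well. The member had 13.7, 16.6, 14.9, 14.9 and 15.6 CPM in CTRL, 20.7, 21, 22.2 and 21.2 in PILO, and 30.1, 14.2, 20.0, 26.6 and 27.2 in PILO+KD. The 4 PILO animals lay within a narrow band above all CTRL animals, and PILO+KD 2 alone of its group was at the CTRL level. Its log2 fold change was 0.64 ± 0.16 in PILO+KD (edgeR p = 0.000426, adjusted p = 0.776, exact permutation p = 0.0397) and 0.49 ± 0.17 in PILO (adjusted p = 0.824, exact permutation p = 0.00794). The neighbour of 1305 bp gave 0.65 in PILO+KD. On the largest flow cell the PILO+KD difference of the member was 0.15 and not called.

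Among the 5 decreases, chr5:168727248-168732825 (5577 bp) had the largest change of any long region. Its CPM was 43.8, 40.1, 1.42, 36.8 and 41.8 in CTRL, 2.07, 35.8, 2.31 and 2.27 in PILO, and 2.16, 2.32, 2.82, 2.54 and 2.44 in PILO+KD. CTRL 1, 2, 4 and 5 and PILO 3 lay between 35.8 and 43.8 CPM, and the other 9 animals, CTRL 3 among them, at 2.82 or less. PILO+KD versus CTRL gave -3.73 ± 0.62 on the log2 scale (edgeR p = 1.12e-06, adjusted p = 0.0581), and the exact permutation p was 0.0476. DESeq2's Wald test gave no adjusted p for this region, so that method neither called nor rejected it. Over the 9 other settings the adjusted p ranged from 0.000111 without a filter on low counts to 0.918 on the largest flow cell. It ranged from 0.000141 to 0.31 when 1 animal was left out. In PILO+KD versus PILO the log2 fold change was -2.22 ± 0.66 (edgeR p = 0.00199, adjusted p = 1.00, exact permutation p = 0.524), but this difference came from 1 library: without PILO 3 it was 0.15. With the replicate block it was -1.89 and not called. In PILO versus CTRL it was -1.52 ± 0.56 and not called.

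The other named decreases in PILO+KD were below 1 on the log2 scale. In chr4:151472316-151475121 (2805 bp), CPM was 13.9, 8.84, 15.3, 15.7 and 11.6 in CTRL, 3.55, 11.4, 11.4 and 6.68 in PILO, and 9.64, 7.37, 8.70, 3.1 and 5.94 in PILO+KD. CTRL 2 fell among the PILO+KD animals, and the difference was -0.92 ± 0.25 (edgeR p = 0.000815, adjusted p = 0.852, exact permutation p = 0.0159). In chr2:25637898-25640027 and chr9:105933986-105936220 it was -0.45 ± 0.16 and -0.46 ± 0.16 (exact permutation p = 0.0238 and 0.00794), and the edgeR p stayed below 0.01 in 4 of the 14 fits without 1 animal for each. On the largest flow cell none of the 3 was called, with differences of -0.71, -0.10 and -0.33, and the chromosome 2 region was not called with the replicate block (-0.36).

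**Figure D4:**
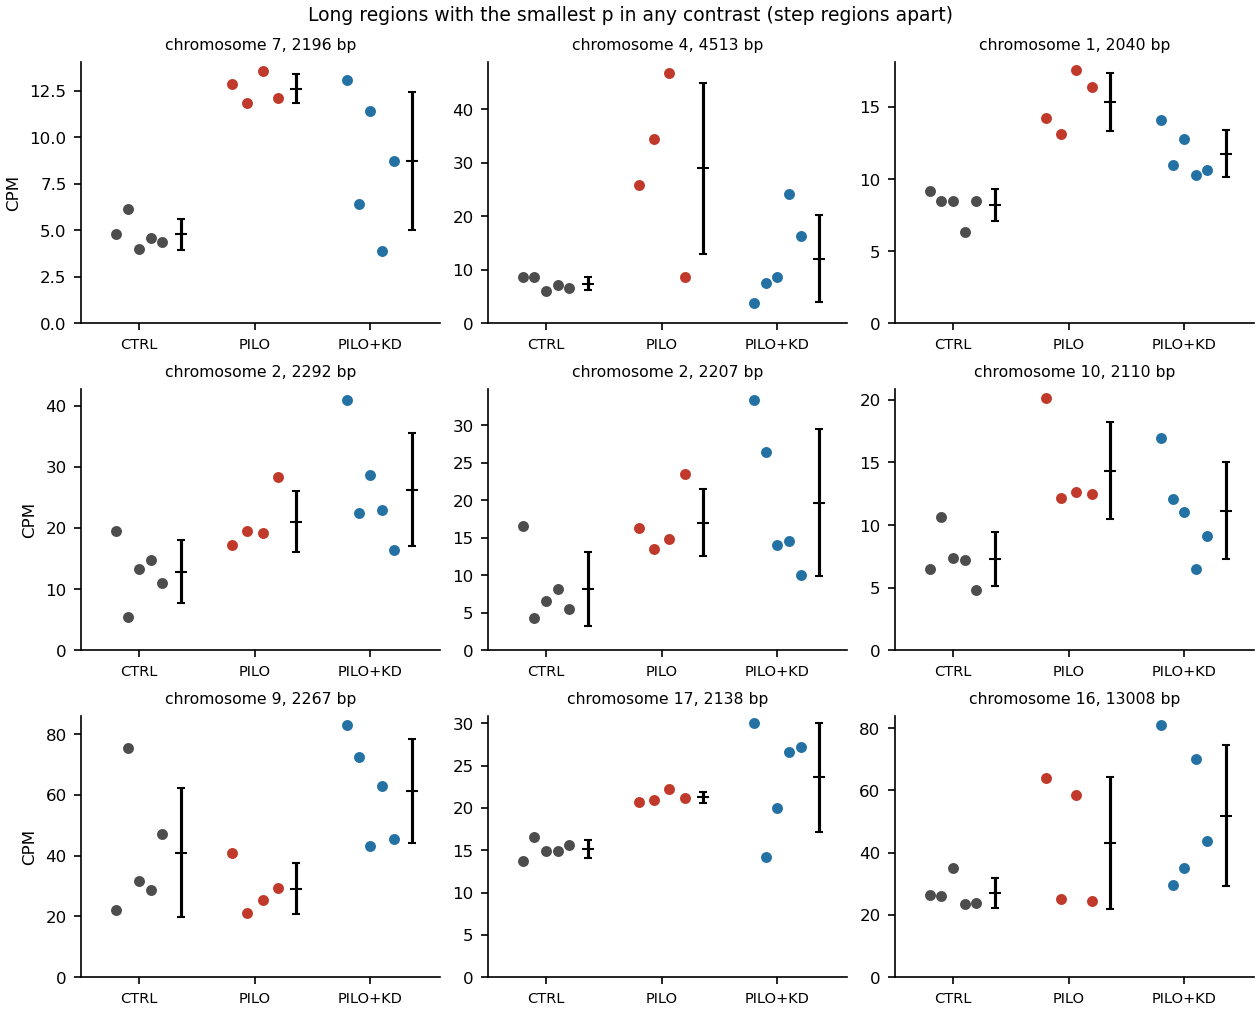
CPM of the 9 named long regions with the smallest p in any contrast, step regions apart, in each animal (points, by group), with the group mean and SD beside them. In the chromosome 7 panel the PILO animals lie at 11.8 to 13.6 and the CTRL animals at 3.99 to 6.15, and in the chromosome 16 panel 2 of 4 PILO and 2 of 5 PILO+KD animals lie at 58.4 CPM or above.

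PILO+KD versus PILO gave the fewest calls: 5 long regions (0.212%), against 0.351% of all regions tested and 0.423% of regions of 400 to 800 bp. Of these, 2 were higher in PILO+KD (0.151% of all regions tested) and 3 lower (0.201%). It was 1 and 3 with TMM factors from the 400 to 800 bp regions, and 1 and 4 with loess offsets. No adjusted p was below 0.05 in edgeR or DESeq2, and 23 and 17 long regions had an unadjusted p below 0.05. The groups did not overlap in 9 long regions (0.381%), against 0.746% of all regions tested and 0.982% of those of 400 to 800 bp. Of these 9, 7 were higher in PILO+KD and 2 lower. Over all regions tested, 447 were higher and 710 lower without overlap. The median log2 fold change was 0.02 in long regions, -0.02 in those of 400 to 800 bp and 0.00 over all regions tested. On the largest flow cell it was -0.14.

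The strongest of these was chr9:30211945-30214212 (2267 bp), an isolated region with no neighbour closer than 14424 bp. Its CPM was 22.2, 75.4, 31.7, 28.7 and 47.0 in CTRL, 40.7, 21, 25.3 and 29.5 in PILO, and 82.9, 72.6, 43.3, 62.8 and 45.4 in PILO+KD. Every PILO+KD animal exceeded every PILO animal, but CTRL animals spread over both groups. On the log2 scale they differed by 1.08 ± 0.26 (edgeR p = 0.000227, adjusted p = 1.00, exact permutation p = 0.00794), and it was called in all 14 fits without 1 animal.

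In chr7:19415537-19420503 (4966 bp), CPM was 70.7, 99.5, 63.2 and 67.7 in PILO and 111, 93.6, 111, 99.9 and 138 in PILO+KD. PILO 3 overlapped the PILO+KD animals, and CTRL animals ranged from 61.8 to 139. The difference was 0.55 ± 0.19 (edgeR p = 0.00758, adjusted p = 1.00, exact permutation p = 0.0159), and the call was lost in 9 of 24 other settings, among them the largest flow cell (0.40) and the replicate block (0.48). Its neighbours at 650 and 7481 bp gave 0.47 and 0.59 and were not called. In chr4:168428550-168430825 (2275 bp), CPM was 17.9, 25.4, 29.3 and 32.3 in PILO and 14.8, 16.1, 16.7, 22.1 and 13.7 in PILO+KD. PILO 2 lay within the PILO+KD range, and the log2 fold change was -0.65 ± 0.18 (edgeR p = 0.000908, adjusted p = 1.00, exact permutation p = 0.0317). On the largest flow cell it was -0.56 and not called. Its neighbours, 29024 and 15684 bp away, gave 0.04 and 0.05.

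Neighbours of called long regions were compared over 10 kb. In PILO versus CTRL, 12 of the 16 tested neighbours of called regions had the same direction (75%), and none was itself called, while the share around long regions that were not called was 64.0%. In PILO+KD versus CTRL it was 22 of 27 (81.5%), of which 10 were called, all in the direction of the member, against 66.7% around those not called. In PILO+KD versus PILO it was 4 of 4, against 51.4%. Neighbouring regions come from the same libraries, so these shares are given without a test, and the chromosome 16 stretch alone accounts for 8 of the 10 called neighbours. These 8 are not further regions: they are the 5 called members of the stretch, counted as neighbours of each other.

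Across the whole class, the levels of single animals were compared through the median log2 difference of long regions from the CTRL mean, minus the same median of the 400 to 800 bp regions. It was -0.22, -0.08, 0.11, 0.06 and 0.04 in CTRL, 0.20, -0.26, 0.09 and 0.08 in PILO, and 0.32, -0.19, -0.20, 0.27 and 0.08 in PILO+KD. Animals of each group lay on both sides of 0, and the groups overlapped. The animal with the lowest value, PILO 3, had the largest TMM factor (1.07), and the one with the highest, PILO+KD 1, had the smallest (0.895). The part of library composition in the class medians was not tested.

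Some long regions differed between animals far more than between groups. The highest over the lowest CPM among the 14 animals had a median of 1.70 over the 2361 regions, and it was over 2 in 451 (19.1%), over 4 in 57 and over 10 in 16. A step was then sought in the ordered animals, with at least 3-fold between neighbouring values, at least 2 animals on either side and at least 500 summed tags, a criterion chosen after the values were seen. It was met by 9 of 2341 long regions (0.384%) and by 25 of 57898 shorter regions with at least 500 tags (0.0432%). Depth was not matched, as 512 of the long and 50862 of the shorter regions had 500 to 2000 tags. The shares were 0.195% and 0.0433% at that depth, and 0.435% and 0.0503% at 2000 to 4000. At 4000 to 8000 tags it was 0 of 835 long and 0 of 927 shorter regions. From 8000 tags on the shares were 1.64% and 0%, with only 141 shorter regions. In long regions these shares rest on 1, 3, 0 and 5 regions. The 5 include the neighbouring regions on chromosome 2 described below, which split the animals in the same way. With at least 500 tags, the highest over the lowest CPM was over 4 in 1.96% of long and 1.99% of shorter regions. It was over 10 in 0.513% and 0.181%. The regions on chromosomes 5 and 15 described above were among the 9 with a step.

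In chr19:54128292-54130712 (2420 bp), CPM was 33.8, 43.0, 50.7, 27.6 and 41.4 in CTRL, 1.18, 0.658, 35.6 and 98.3 in PILO, and 1.44, 41.5, 26.2, 0.442 and 50.6 in PILO+KD. No CTRL animal was in the low set, which held PILO 2, PILO 3, PILO+KD 1 and PILO+KD 4. Neither contrast with CTRL was called. The highest animal had 222 times the CPM of the lowest.

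In chr6:136872104-136875127 (3023 bp), 8 animals lay between 10.3 and 29.5 CPM and 6 between 0.129 and 0.462. The low set contained 3 CTRL, 1 PILO and 2 PILO+KD animals. PILO versus CTRL gave a log2 fold change of 0.36 ± 0.79.

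On chromosome 2, the neighbouring regions chr2:252843235-252847715 (4480 bp) and chr2:252850119-252864200 (14081 bp) split the animals in the same way. In the first, CTRL 1 and 2, PILO 2 and 5, and PILO+KD 2 and 211 had 121 to 232 CPM and the other 8 animals 14.7 to 19.6. In the second, the same 6 animals had 303 to 582 CPM and the others 41.5 to 56.1. With 2 animals of each group above the step, neither region was called in any contrast.

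In chr1:15324164-15329483 (5319 bp), CTRL 4, PILO 3, PILO 5 and PILO+KD 2 had 322 to 508 CPM and the other 10 animals 31.1 to 61.6. The remaining step regions were chr1:261708277-261710716 (2439 bp), where PILO 2 and PILO 5 had 2.96 and 1.51 CPM and the others at least 13.2, and chr13:86910975-86916245 (5270 bp), where 9 animals lay between 88.7 and 144 and 5 between 18.5 and 27.9. Which animals were high or low differed between these regions, apart from the neighbours on chromosome 2.

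**Figure D5:**
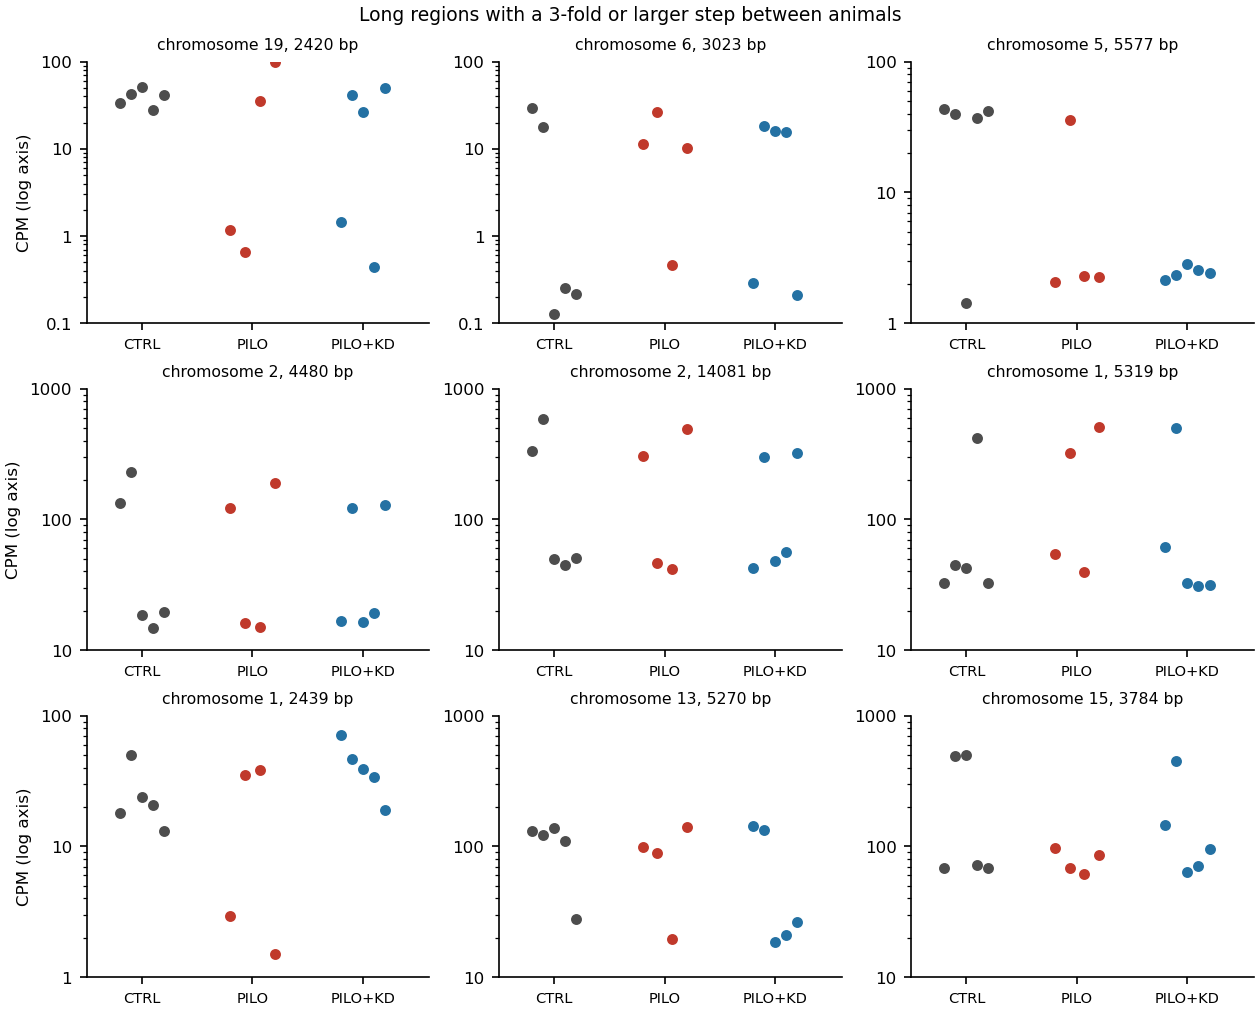
CPM (log axis) in each animal, by group, of the 9 long regions with a step of at least 3-fold between animals. In the chromosome 6 panel 8 animals lie above 10 CPM and 6 below 0.5, and animals of every group lie on both sides of the step in the panels of chromosomes 2, 6 and 13 and in that of the 5319 bp region on chromosome 1.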

How the data were processed

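Methyl-Seq of dorsal hippocampus was measured in 14 rats (CTRL n = 5, PILO n = 4, PILO+KD n = 5), grouped by the sample labels. The authors captured methylated DNA, sequenced single reads of 36 bp, aligned them with BWA to RN4, removed duplicates, called regions between pairs of samples with MACS 1.4.0, merged them and deposited raw tag counts per region and animal, with no normalization. A region is thus listed because a pair of samples differed there, and its length also reflects merging. Coordinates are printed as deposited. Whether starts count from 0 or 1 is not given in the sources used here.

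Regions with fewer than 129 summed tags (the 50th centile) were removed as in the study, which left 155092 regions. In R 4.3.3, counts were scaled with TMM and fitted with edgeR 4.0.16 (glmQLFit, glmQLFTest, a mean per group, all 14 animals). The cut-off was p below 0.01 and Benjamini-Hochberg adjustment ran over all regions tested. Standard errors were derived from the log2 fold change and its F. For single named regions, an exact two-sided permutation test used every split of the animals on log2 CPM (prior count 2). P values set a difference against the spread between these animals. The edgeR p takes part of that spread from all regions tested, while the permutation p uses only the region's own values. The edgeR p and the permutation p of a region can therefore differ. The script was tested on simulated counts. Density, gaps and neighbours were computed from positions and total tags, without a test. Total tags per animal were 6972700 to 12391666, and counting error is largest in regions with few tags.

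Named regions are the 5 longest, the 5 with the highest mean CTRL density, the 4 higher and 4 lower with the smallest p below 0.01 in each contrast, their neighbours, the chromosomes with the highest and lowest share, and those next to the length limit. Step regions, the chromosome 16 stretch and the groups of members were named after their values were seen. The members and lists were chosen with earlier results of these data known. Alternatives were scaling (size factors of DESeq2 1.42.0, total tags, TMM from 400 to 800 bp regions, loess offsets added after seeing the data), filter, flow cell, replicate block, DESeq2's Wald test, length limits and each animal left out. Genes and sequences of RN4 were not used here.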

Additional observations from a re-analysis of the deposited data

Results flagged for a closer look

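In each group, the highest and the lowest animal of the shares, densities and named long regions were compared with the rest of the group (Dixon's criterion at the 95% level), and 9 of 96 groups examined had an animal far from the others. Regions named only for a step between animals were not among the 96. Chance alone flags about 1 in 20 groups. PILO 3 had 9.49% of its tags on chromosomes 1 to 20 in long regions, while the other PILO animals had 10.8% to 10.9%. PILO+KD 4 had 205 CPM in chr6:137759617-137778823, and the other PILO+KD animals 148 to 165. CTRL 4 had 6.33 CPM in chr1:208383348-208385388, below the 8.50 to 9.14 of the other CTRL animals. PILO 2 had 20.1 CPM in chr10:91542570-91544680, above the 12.2 to 12.6 of the other PILO animals.

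PILO+KD 2 had 449 CPM in chr15:58344262-58348046, and the others of its group 64.0 to 147. CTRL 3 had 35.2 CPM in chr16:37883674-37896682, and the other CTRL animals 23.5 to 26.4. In chr5:168727248-168732825, 2 animals stood apart: CTRL 3 had 1.42 CPM against 36.8 to 43.8 in the other CTRL animals, and PILO 3 had 35.8 CPM against 2.07 to 2.31 in the other PILO animals. PILO+KD 2 had 15.1 CPM in chr2:25637898-25640027, and the others of its group 9.12 to 10.7.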

How the results depend on the processing

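The number of long regions called was 15, 22 and 5 (PILO versus CTRL, PILO+KD versus CTRL, PILO+KD versus PILO). For PILO versus CTRL it was 26 on the largest flow cell, 26 with flow cell as a covariate and 31 with the replicate block. For PILO+KD versus PILO it was 14 on the largest flow cell and 3 with DESeq2's Wald test. With DESeq2, PILO versus CTRL split into 9 higher and 13 lower. An adjusted p below 0.05 left 1, 0 and 0 (2, 0 and 0 with DESeq2), a limit of 3000 bp 3, 7 and 3, and a limit of 1500 bp 92, 75 and 23, since fewer or more regions then count. Leaving out each animal gave 12 to 26, 12 to 33 and 4 to 12. Counts moved over 1.5 times without PILO 3 (26, PILO versus CTRL), CTRL 4 (12, PILO+KD versus CTRL), and PILO 2, PILO+KD 1 or PILO+KD 2 (12, 9 and 8, PILO+KD versus PILO). The other scalings and filters kept the 3 counts within 1.5 times of these.

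Median log2 fold changes moved by over 1 CTRL SD (0.07) in PILO+KD versus CTRL on the largest flow cell (-0.13) and with loess offsets (-0.019), and in PILO+KD versus PILO on the largest flow cell (-0.14). Leaving out each animal gave 0.02 to 0.09, 0.02 to 0.10 and -0.02 to 0.05. The cause of these moves was not tested. The density ratio of 6.90 was 2.27 against regions of 800 to 1200 bp, 5.42 and 8.81 with limits of 1500 and 3000 bp, 3.86 over regions that passed the filter, 5.20 as summed tags over summed length, and 6.73 to 7.04 without 1 animal.

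For the 21 named differences, 177 of 210 settings kept direction and call, 33 kept the direction without the call and 0 reversed. Among the 33 is DESeq2's Wald test for chr5:168727248-168732825, in PILO+KD versus CTRL and in PILO+KD versus PILO. It gave no adjusted p there, so these are missing values and not calls that were lost. Leaving out an animal kept 242 of 294, lost the call in 51 and reversed 1, chr5:168727248-168732825 in PILO+KD versus PILO (0.15 without PILO 3, -2.53 to -2.19 without any other animal). The 294 include fits without an animal of the group not compared, which enters a difference only through the scaling and the shared spread.

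Replicate numbers recur between groups. Deviations from the group means of same-numbered animals correlated between -0.29 and 0.28 (means 0.01, -0.01 and 0.13), and those of animals with other numbers reached 0.38. Per the labels, same-numbered animals ran on the same flow cell, except PILO+KD 4, and it is not given whether a number marks a set handled together. A replicate block gave 31, 21 and 5 calls, without animal 211, which has no number. It ended the call of 6 of the 21 named differences and changed no other of these calls.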
